A study of Mus musculus with 7 samples.

Results

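The neuromuscular junction and acetylcholine receptor genes are 10 genes, picked by symbol from the raw count table of 48820 Ensembl genes: the muscle receptor subunits Chrna1, Chrnb1, Chrnd, Chrng and Chrne, and Musk, Rapsn, Dok7, Agrn and Lrp4, which encode the machinery that gathers the receptor under the nerve terminal. All 10 were found. They were read in RNA of the entire tibialis anterior (TA), the shin muscle that lifts the foot, taken from male mice aged 7 weeks on day 3 after injury with barium chloride (BaCl2), a salt that kills muscle fibres and leaves the stem cells that rebuild them. The 3 control libraries came from mice of genotype WT; Pax7-CreERT2. The 4 Sirt7 scKO libraries came from mice of genotype Sirt7fl/fl; Pax7-CreERT2, in which both copies of Sirt7, a gene for a NAD-dependent deacylase, are flanked by recombination sites. Both groups therefore carried Pax7-CreERT2, a drug-inducible recombinase driven by Pax7, the marker gene of muscle stem cells, and both were injured. Recombination in Pax7-positive cells is passed on to the new fibres that descend from them. Fibres that survived injury and the other cells of the muscle also gave RNA here, and recombination in these was not measured. The sources used here do not give the inducing drug or its timing.

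The muscle acetylcholine receptor is a ring of subunits, a pair of alpha subunits with a beta, a delta and either a gamma or an epsilon subunit, which opens when the nerve releases acetylcholine. Embryonic, newly formed and denervated muscle makes the gamma form along the whole fibre, and innervated adult muscle makes the epsilon form from the few nuclei beneath the nerve terminal. Agrin released by the nerve binds LRP4 on the fibre, which activates the receptor tyrosine kinase MuSK. DOK7 binds and activates MuSK from inside the cell, and rapsyn, the product of Rapsn, ties the receptors together into clusters. Myogenic factors such as MyoD and myogenin switch on several receptor genes through the E-box, the DNA element CANNTG, and Ets factors act at the N-box, CCGGAA, of genes restricted to synaptic nuclei.

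Promoters from RefSeq (build GRCm38.p6, 250 bases before to 50 bases after the start of transcription) were on hand for 7 of the 10 genes, with 2 starts each for Dok7 and Agrn. Chrnd, Rapsn and Lrp4 had no entry. The promoters of 4 receptor subunits are printed because they differ in the elements that fetal and adult subunits are known for. Capitals mark the E-box form CAGCTG, which reads the same on both strands, and the N-box CCGGAA, searched on both strands. The windows are chr2:73580289-73580588, minus strand, for Chrna1, chr11:69795888-69796187, minus strand, for Chrnb1, chr1:87205561-87205860, plus strand, for Chrng, and chr11:70619145-70619444, minus strand, for Chrne.
Chrna1: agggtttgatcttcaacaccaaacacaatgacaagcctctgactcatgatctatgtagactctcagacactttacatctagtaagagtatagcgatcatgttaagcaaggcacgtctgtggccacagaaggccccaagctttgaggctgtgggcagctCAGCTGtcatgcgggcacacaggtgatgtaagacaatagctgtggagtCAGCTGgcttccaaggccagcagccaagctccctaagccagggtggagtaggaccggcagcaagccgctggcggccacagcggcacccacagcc
Chrnb1: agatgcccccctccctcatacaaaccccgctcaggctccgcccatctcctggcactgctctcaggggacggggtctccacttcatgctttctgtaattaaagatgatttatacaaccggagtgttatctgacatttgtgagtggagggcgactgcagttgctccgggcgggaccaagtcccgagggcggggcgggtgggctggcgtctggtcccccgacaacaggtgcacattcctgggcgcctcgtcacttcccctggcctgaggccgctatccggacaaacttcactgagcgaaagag
Chrng: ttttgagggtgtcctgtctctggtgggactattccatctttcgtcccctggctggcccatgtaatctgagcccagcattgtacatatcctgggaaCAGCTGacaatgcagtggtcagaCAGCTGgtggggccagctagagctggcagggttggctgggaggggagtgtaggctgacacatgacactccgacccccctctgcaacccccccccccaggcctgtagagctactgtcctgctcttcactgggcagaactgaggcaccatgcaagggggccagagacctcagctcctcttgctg
Chrne: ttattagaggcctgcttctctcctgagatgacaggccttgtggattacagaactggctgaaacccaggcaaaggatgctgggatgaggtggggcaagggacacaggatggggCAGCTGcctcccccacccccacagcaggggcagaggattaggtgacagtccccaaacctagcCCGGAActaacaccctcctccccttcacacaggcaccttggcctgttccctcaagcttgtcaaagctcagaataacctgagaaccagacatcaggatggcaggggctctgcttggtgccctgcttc
Chrna1 held CAGCTG at 2 places, with first bases 92 and 44 bases before the start. Chrng also held it at 2 places, 155 and 132 bases before the start, and Chrne at 1 place, 138 bases before the start. In Musk it lay 68 bases before the start. Of 32851 mouse promoters of this length, 16.3% held CAGCTG at least once and 1.9% at 2 or more places. The window of Chrne also held CCGGAA, 76 bases before the start, a motif that 14.9% of all promoters held on one strand or the other. No other window of these 7 genes held the N-box, and the windows of Chrnb1, Dok7 and Agrn held neither CAGCTG nor CCGGAA. The looser form CANNTG, of which CAGCTG is a case, lay at 3 places each in the windows of Chrna1, Chrnb1, Chrng and Musk. Chrne held it at 1 place, as did 1 of the 2 windows each of Dok7 and Agrn. It was in 72.3% of all promoters, and at 3 or more places in 17.6%. These matches describe letters and were not tested as binding sites.

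Libraries held 5425095 to 7553137 counts, of which the 10 genes took 0.0355% to 0.0557%. Levels are in CPM, the count of a gene scaled to a common library size from the counts in tested genes and the TMM factor, and each fold change sets Sirt7 scKO against control, with negative values lower in Sirt7 scKO. Of the 16764 genes tested by edgeR's quasi-likelihood test, 22 passed at a Benjamini-Hochberg adjusted p of 0.05. In Sirt7 scKO 17 of them (0.101% of those tested) were higher and 5 (0.0298%) were lower. This number went from 0 without control replicate 2 to 330 without Sirt7 scKO replicate 4. Sirt7 itself was 46.2, 70.6 and 57.3 CPM in control and 39.7, 34.1, 47.9 and 52.97 CPM in Sirt7 scKO, with overlapping groups and an edgeR adjusted p of 0.288. The targeted gene thus did not separate the groups in RNA of whole muscle, where its counts cover the whole gene and all cell types.

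Per length, the alpha subunit gene was the most abundant of the 10 and the epsilon subunit gene the least. Mean levels over the 7 libraries, in CPM per kb of exon (RPKM), were 38.3 for Chrna1, 15.8 for Chrnb1, 14.7 for Rapsn, 12.3 for Chrnd and 9.52 for Chrng. They were 6.81 for Dok7, 6.62 for Agrn, 2.71 for Lrp4, 2.30 for Musk and 0.428 for Chrne. Apart from Chrne, the receptor and rapsyn genes thus stood above Dok7, Lrp4 and Musk of the agrin receptor complex. Chrna1 exceeded Chrnb1, Agrn exceeded Lrp4 and Musk exceeded Chrne in all 7 libraries with no overlap of their ranges. The other neighbours in this order overlapped. Chrnb1 was above Rapsn in 5 of 7 libraries, Rapsn above Chrnd in 6, Dok7 above Agrn in 4 and Lrp4 above Musk in 5. Chrnd lay above Chrng and Chrng above Dok7 in each of the 7 libraries, although their ranges overlapped between libraries. With the length of the longest principal transcript in place of all exons, Chrng (14.3 RPKM) and Chrnd (13.8 RPKM) changed places and the rest of the order was kept. Per kb of all exons, Chrna1 stood 2.15 to 2.92 times above Chrnb1, 2.75 to 4.53 times above Chrnd and 3.23 to 4.59 times above Chrng within a library. By principal transcript Chrna1 kept its mean of 38.3 RPKM, so its distance to Chrng was smaller by that length.

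**Figure D1:**
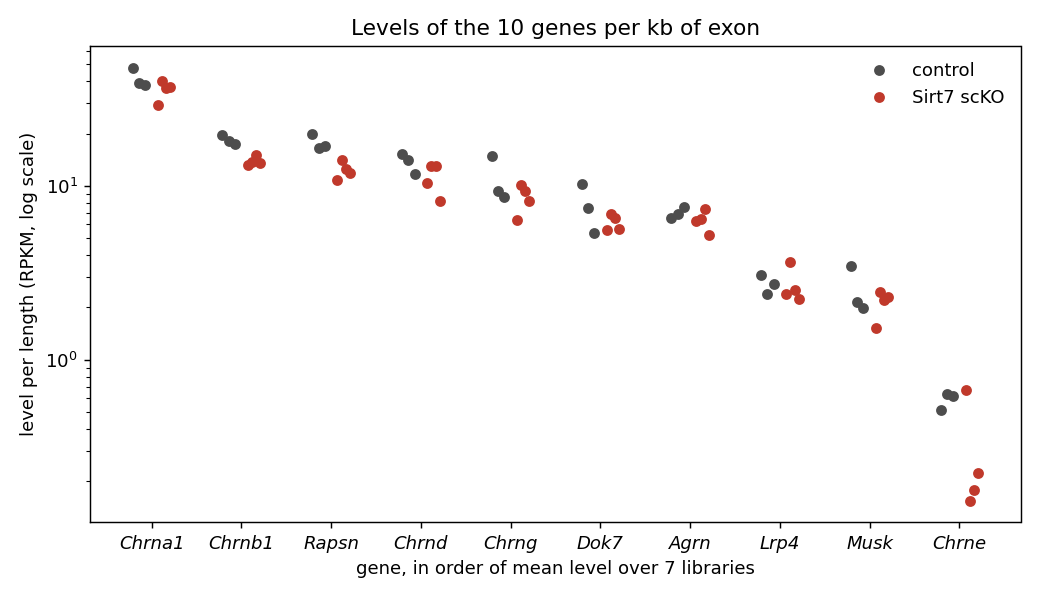
Level of each of the 10 genes per kb of exon (RPKM, log axis) in the 3 control and 4 Sirt7 scKO libraries, 1 point per library, ordered by the mean over libraries. Chrna1 stands highest at 29.3 to 47.9 RPKM and Chrne lowest at 0.155 to 0.666 RPKM.

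The comparison of the study sets the genotype made to delete Sirt7 in the stem cell lineage against control. The extent of deletion in the cells of that lineage was not measured here. Of the 10 genes, 9 had enough counts to be tested, and Chrne did not. None of the 9 passed the edgeR test, against 0.131% of all tested genes, and none passed with DESeq2 or limma voom. At an unadjusted p under 0.05 there were 2, Rapsn and Chrnb1, both with negative fold changes, against 6.94% of all tested genes in that direction. In the same 2 genes all 4 Sirt7 scKO libraries lay below all 3 control libraries, against 5.71% of all tested genes. All 9 fold changes were negative, against 48.7% of tested genes, with a median log2 fold change of -0.29 beside 0.01 over all tested genes. The sign and the size leaned on control replicate 1, which had the highest level of 7 of the 9 genes. Without it 7 of the 9 were negative, Musk turned to 0.03 and Lrp4 to 0.08, and the median was -0.11. In RNA of whole muscle, fewer cells of a type and less RNA per cell cannot be told apart.

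**Figure D2:**
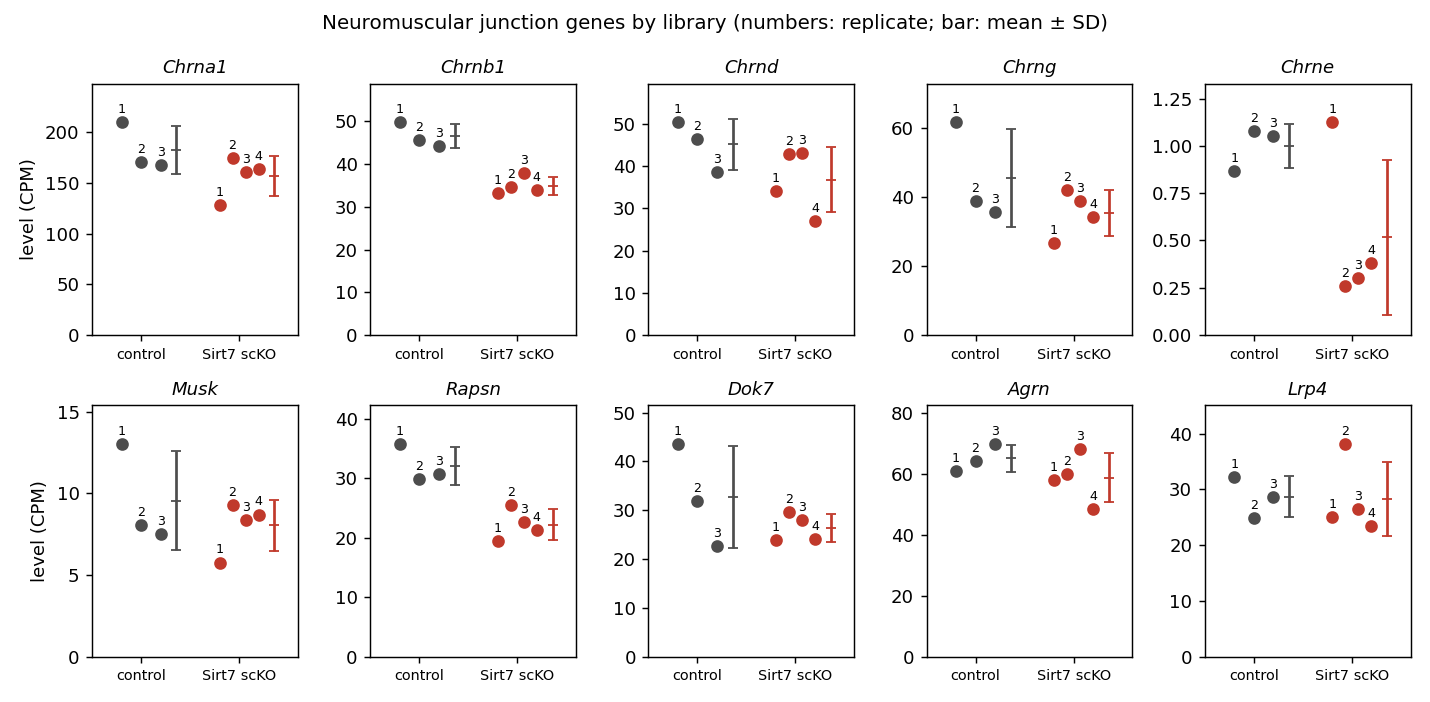
Level (CPM, axes from 0) of each gene in each library, with the replicate number above each point and the mean ± SD beside each group. Rapsn and Chrnb1 show no overlap between 3 control and 4 Sirt7 scKO libraries. In 7 panels control replicate 1 is the highest point.

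Rapsn, the receptor-clustering scaffold (ENSMUSG00000002104.11, GRCm38 chromosome 2, 91035620 to 91045729, plus strand), had the largest fold change of the tested genes of the set. In control, replicates 1 to 3 had 35.8, 29.8 and 30.7 CPM, whereas replicates 1 to 4 of Sirt7 scKO had 19.4, 25.5, 22.6 and 21.4 CPM. Values of all genes are given in this order. Every Sirt7 scKO library lay below the lowest control library. The means were 32.1 ± 3.23 CPM (SD, n = 3) and 22.2 ± 2.55 CPM (SD, n = 4). This gave a log2 fold change of -0.53 (SE 0.124, 95% interval -0.80 to -0.26). The edgeR adjusted p was 0.119, so the difference was larger than the spread of its own libraries but did not pass over all genes. Its adjusted p passed in 1 of 16 alternatives, the fit with no filter (edgeR adjusted p = 0.016), and ran from 0.0654 to 0.357 in the others. The exons of Rapsn share 4 bases with the noncoding gene Gm13778 on the other strand, which had 9 to 18 counts per library.

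The beta subunit gene Chrnb1 (ENSMUSG00000041189.9, chromosome 11, 69784036 to 69795943, minus strand) had the narrowest spread of the receptor genes. It was 49.9, 45.6 and 44.3 CPM in control and 33.2, 34.5, 38.0 and 34.05 CPM in Sirt7 scKO. The groups did not overlap, with means of 46.6 ± 2.90 CPM and 34.96 ± 2.12 CPM. Its log2 fold change came to -0.41 (SE 0.098, 95% interval -0.63 to -0.20), and the edgeR adjusted p of 0.119 did not pass. Over the 16 alternatives its adjusted p ran from 0.0512 with no filter to 0.391 without control replicate 2, and the fold change from -0.46 to -0.37.

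The alpha, delta and gamma subunit genes did not separate the groups. Chrna1 (ENSMUSG00000027107.3, chromosome 2, 73563215 to 73580338, minus strand), whose product carries most of the acetylcholine-binding site, was 210.2, 170.3 and 167.5 CPM in control and 128.5, 175.1, 161.2 and 163.5 CPM in Sirt7 scKO. Only Sirt7 scKO replicate 1 stood well below the control range, and Sirt7 scKO replicate 2 lay inside it. Its log2 fold change came to -0.22 (SE 0.114, 95% interval -0.46 to 0.03, edgeR adjusted p = 0.426), and it was -0.11 without control replicate 1 and -0.14 without Sirt7 scKO replicate 1. Chrnd (ENSMUSG00000026251.13, chromosome 1, 87190607 to 87200070, plus strand) was 50.4, 46.4 and 38.5 CPM in control and 34.05, 42.8, 42.96 and 27.05 CPM in Sirt7 scKO, where replicate 4 was the lowest. Its log2 fold change came to -0.29 (SE 0.155, 95% interval -0.62 to 0.04, edgeR adjusted p = 0.438), and it was -0.18 without that replicate. Chrng (ENSMUSG00000026253.14, chromosome 1, 87204657 to 87212694, plus strand), the neighbour of Chrnd, encodes the fetal gamma subunit. It was 61.7, 38.8 and 35.7 CPM in control and 26.6, 41.9, 38.8 and 34.05 CPM in Sirt7 scKO. Control replicate 1 was far above and Sirt7 scKO replicate 1 below the other 5 libraries, which stood at 34.05 to 41.9 CPM irrespective of group. Its log2 fold change came to -0.36 (SE 0.189, 95% interval -0.77 to 0.05, edgeR adjusted p = 0.429) and became -0.08 without control replicate 1.

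The fetal gamma message outweighed the adult epsilon message in each of the 7 libraries. Chrne (ENSMUSG00000014609.16, chromosome 11, 70614883 to 70619216, minus strand) had 5, 6 and 6 counts in control and 8, 2, 2 and 2 counts in Sirt7 scKO, against 180 to 355 counts of Chrng. Per kb of all exons and with 0.5 added to each count, Chrng exceeded Chrne 26.2-fold, 13.5-fold and 12.8-fold in control replicates 1 to 3. In Sirt7 scKO replicates 1 to 4 it did so 9.05-fold, 52.0-fold, 42.1-fold and 29.3-fold. By the same lengths, epsilon made up 3.35%, 6.40% and 6.76% of both messages in control and 9.44%, 1.52%, 1.87% and 2.66% in Sirt7 scKO. Sirt7 scKO replicate 1 thus had the highest epsilon share of all libraries and the other 3 Sirt7 scKO libraries the lowest. The log2 ratio of gamma to epsilon was 4.05 ± 0.58 in control and 4.79 ± 1.13 in Sirt7 scKO, a difference of 0.74 that was within the spread of the libraries (two-sided exact permutation p = 0.343 over 35 splits, smallest possible 0.0286). Without Sirt7 scKO replicate 1 the ratios of the groups did not overlap and the difference was 1.27, with an exact permutation p of 0.1, the smallest that 3 against 3 libraries allow. Without Sirt7 scKO replicate 2 it was 0.43 (exact permutation p = 0.6). Pooled, Chrne was 0.998 CPM in control (17 counts, exact 95% Poisson interval 0.582 to 1.598) and 0.524 CPM in Sirt7 scKO (14 counts, 0.287 to 0.879). The control rate was 1.91 times that of Sirt7 scKO with an exact 95% interval of 0.884 to 4.17, so no difference in Chrne was detectable at this depth. These intervals cover counting error alone, and PCR copies of a molecule cannot be told from separate molecules. Chrne lies over the gene 4930544D05Rik of the other strand, with no shared exon bases.

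The 4 libraries with 5 or more counts of Chrne were also the 4 with the most RNA of mature fibres, read from 14 marker genes. Their summed level was 6036, 3938 and 2327 CPM in control and 4041, 681.5, 1435 and 1401 CPM in Sirt7 scKO. All 14 log2 fold changes were negative, with a median of -1.14 and none past the test. Sirt7 scKO replicate 1 was thus the Sirt7 scKO library with most mature fibre RNA, as it was with most Chrne. The 7 markers of new fibres, such as embryonic myosin, summed to 588, 349 and 194 CPM in control and 146, 195, 201 and 159 CPM in Sirt7 scKO. All 7 log2 fold changes were negative, with a median of -1.01 and none past the test. In the new fibre sum Sirt7 scKO replicate 1 was the lowest library and control replicate 1 the highest, as for Chrng. Unlike the sum, Myh8 was lowest in Sirt7 scKO replicate 2 (7.07 CPM, with 26.3 CPM in replicate 1) and Myl4 in replicate 4. Beside these medians, that of the 9 tested junction genes was -0.29. The part of fibre content in the levels of the receptor genes was not tested.

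**Figure D3:**
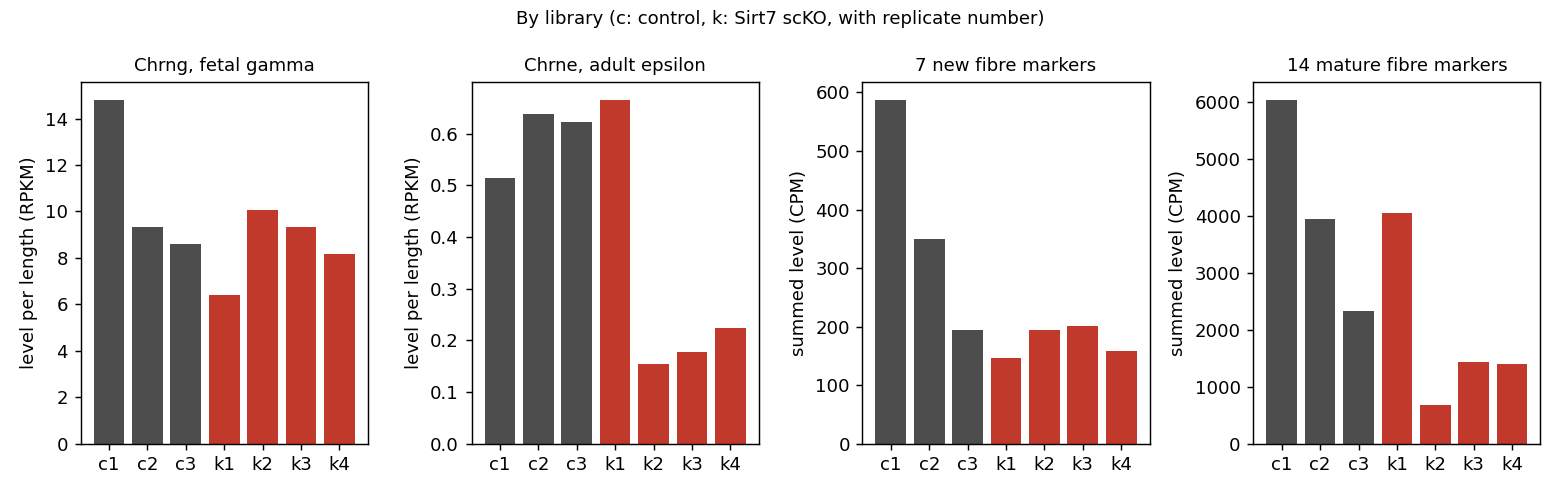
Levels per length of Chrng and Chrne (RPKM) beside the summed levels (CPM) of 7 new fibre and 14 mature fibre markers, 1 bar per library (c, control; k, Sirt7 scKO; axes from 0). Chrne and the mature fibre sum are high in k1 and low in k2 to k4, while Chrng and the new fibre sum are lowest in k1.

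The receptor tyrosine kinase gene Musk and its activator Dok7 varied widely within control. Musk (ENSMUSG00000057280.15, chromosome 4, 58285960 to 58374303, plus strand) was 13.0, 8.08 and 7.53 CPM in control and 5.77, 9.29, 8.38 and 8.70 CPM in Sirt7 scKO, from 41 to 75 counts per library. Control replicate 1 was the highest and Sirt7 scKO replicate 1 the lowest, as for Chrng, and the groups overlapped (log2 fold change -0.25 with an SE of 0.235, edgeR adjusted p = 0.678). Musk was at -0.12 without Sirt7 scKO replicate 1 and at -0.39 without control replicate 3. Dok7 (ENSMUSG00000044716.12, chromosome 5, 35056766 to 35087839, plus strand) was 43.6, 31.8 and 22.8 CPM in control and 23.9, 29.6, 28.0 and 24.0 CPM in Sirt7 scKO. The control libraries alone spanned the whole range of Sirt7 scKO, with a log2 fold change of -0.31 (SE 0.179, 95% interval -0.70 to 0.08, edgeR adjusted p = 0.479), or -0.05 without control replicate 1. Leaving out control replicate 3 gave Dok7 a value of -0.51 (edgeR adjusted p = 0.183).

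Agrn and Lrp4 had the smallest fold changes and followed another order of libraries. Agrn (ENSMUSG00000041936.18, chromosome 4, 156165290 to 156197488, minus strand), the gene for agrin, was 61.0, 64.3 and 69.9 CPM in control and 57.97, 59.9, 68.3 and 48.6 CPM in Sirt7 scKO. Its control replicate 1 was the lowest of the control libraries. Its log2 fold change came to -0.15 (SE 0.113, 95% interval -0.39 to 0.10, edgeR adjusted p = 0.605). It was -0.07 without Sirt7 scKO replicate 4, -0.09 without control replicate 3 and -0.23 without Sirt7 scKO replicate 3. Agrin is made by motor neurons, whose cell bodies lie outside the muscle, and also by muscle, Schwann and other cells, and the counts do not tell the neural splice form from the others. Of 6 motor neuron markers, Chat, Slc18a3, Mnx1 and Isl1 had 0 counts in all libraries. The 6 together summed to 2.085 to 2.335 CPM in control and 1.308 to 1.796 CPM in Sirt7 scKO, without overlap. None of the 6 had enough counts to be tested. Lrp4 (ENSMUSG00000027253.15, chromosome 2, 91457511 to 91513779, plus strand), the agrin receptor, was 32.3, 24.97 and 28.7 CPM in control and 25.04, 38.2, 26.5 and 23.5 CPM in Sirt7 scKO. Its highest library was Sirt7 scKO replicate 2. Its log2 fold change came to -0.01 (SE 0.166, 95% interval -0.37 to 0.35, edgeR adjusted p = 0.984), and its sign turned in 5 of 16 alternatives. When each library was left out, it ran from -0.19 without Sirt7 scKO replicate 2 to 0.08 without control replicate 1.

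The set did not vary as a single block over the libraries. Chrna1, Chrnb1, Chrnd, Chrng, Musk, Rapsn and Dok7 were each highest in control replicate 1. Chrna1, Chrnb1, Chrng, Musk and Rapsn were each lowest in Sirt7 scKO replicate 1, and Chrnd, Agrn and Lrp4 were lowest in Sirt7 scKO replicate 4. Centred on the mean over libraries, the mean log2 CPM of the 9 genes was 0.40, 0.08 and 0.00 in control and -0.31, 0.08, -0.01 and -0.22 in Sirt7 scKO. Control replicates 2 and 3 thus lay beside Sirt7 scKO replicates 2 and 3. Chrna1 was nearest to this mean, with a root mean square difference of 0.08 on the log2 scale, and Agrn (0.21) and Lrp4 (0.19) were the farthest. Among 11373 other genes with a mean of at least 5 CPM, the 5 with the smallest root mean square difference were Zxda (0.04), annotated as an unprocessed pseudogene, the deubiquitinase gene Otud1 (0.05), the cytoskeletal linker gene Dst (0.06), the endoplasmic reticulum membrane protein gene Wfs1 (0.07) and the actin-binding protein gene Dbn1 (0.07), against a median of 0.27.

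**Figure D4:**
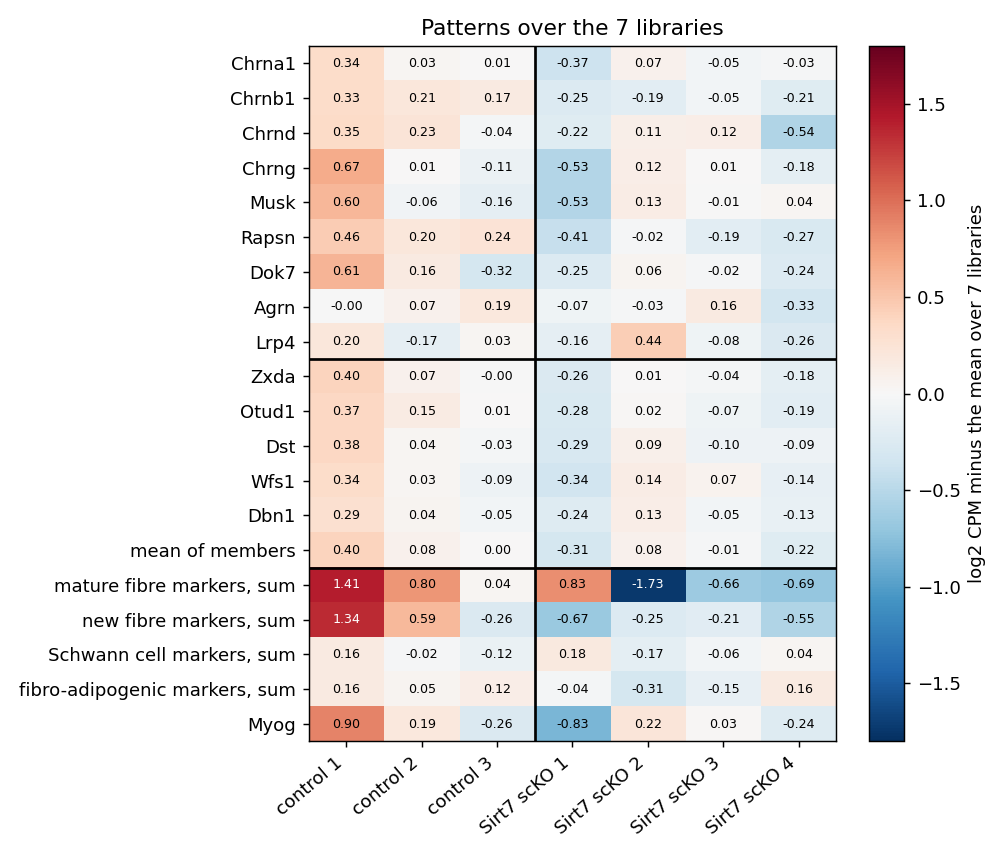
Centred log2 CPM (colour and number) of the 9 tested genes, of the 5 genes nearest to their mean with that mean, and of marker sums and Myog, in 7 libraries. Control replicate 1 is high and Sirt7 scKO replicate 1 low for Chrng (0.67 and -0.53), Musk (0.60 and -0.53) and Myog (0.90 and -0.83), and Agrn does not show this.

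Markers of Schwann cells, endothelial cells, fibro-adipogenic progenitors and muscle stem cells overlapped between the groups in their summed levels. The 8 Schwann cell markers summed to 60.8 to 73.8 CPM in control and 58.7 to 74.8 CPM in Sirt7 scKO, and the 6 endothelial markers to 327.5 to 411.5 CPM and 339.8 to 399 CPM. The 6 markers of fibro-adipogenic progenitors, the fibroblast-like cells of muscle, summed to 997 to 1076 CPM and 774 to 1070 CPM. All 6 had negative fold changes, with a median of -0.17. Of these 6, Dpt alone did not overlap between the groups (log2 fold change -0.51, edgeR adjusted p = 0.139). The 6 stem cell markers summed to 276 to 310 CPM and 266 to 308 CPM. No gene of these lists passed the test. Macrophage markers summed to 9822 to 10360 CPM and 9587 to 11750 CPM with none past the test. Neutrophil markers summed to 110 to 116 CPM and 107 to 171 CPM, also with none past the test. Of the 4 tested, 3 had positive fold changes. The median was 0.99, and the groups of S100a8 and S100a9 did not overlap. Bone markers summed to 11.6 to 25.02 CPM and 50.3 to 103 CPM, without overlap. In this list 3 of 3 tested genes passed as higher, against 0.101% of all tested genes. The list was chosen with earlier results of these data known, so this number is a description and not a test. Most of the bone sum was Mmp13, with group means of 13.0 and 62.4 CPM. Sp7, Bglap and Col2a1 had too few counts to be tested, and of these Col2a1 alone had a lower mean in Sirt7 scKO. The part of these cells in the levels of the junction genes was not tested.

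Beside the 10 genes, 6 lists of 74 other genes of the junction were read in the same fit, of which 62 were tested. None passed the edgeR test and none passed with DESeq2 or limma voom. At an unadjusted p under 0.05 there were 8 lower, against 6.94% of all tested genes, and 4 higher, against 6.69%. The median log2 fold change was -0.03, with 34 negative and 28 positive. The groups did not overlap in 7 lower genes, against 5.71% of all tested genes. They also did not overlap in 4 higher genes, for which the share of all tested genes is not given here.

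The transcriptional regulators of receptor genes had 7 of 9 tested genes negative, with a median of -0.14. Myog, for myogenin, was 307, 188 and 137 CPM in control and 92.6, 191, 167.5 and 139 CPM in Sirt7 scKO, highest in control replicate 1 and lowest in Sirt7 scKO replicate 1 like Chrng and Musk (log2 fold change -0.51 with an SE of 0.249, edgeR adjusted p = 0.391). Myod1 was 265, 200.3 and 199 CPM in control and 168, 238, 211 and 209 CPM in Sirt7 scKO, with overlapping groups (log2 fold change -0.10, edgeR adjusted p = 0.771). The E-protein gene Tcf3, a partner of the myogenic factors, was 85.7 to 88.4 CPM in control and 69.1 to 77.8 CPM in Sirt7 scKO, with no overlap (log2 fold change -0.26, edgeR adjusted p = 0.214). Tcf12, another E-protein gene, was at 0.13 and the early myogenic factor Myf5 at 0.45 (edgeR adjusted p = 0.565 and 0.292). The groups of Myf5 did not overlap, with Sirt7 scKO higher. Pax7, the stem cell factor, was 11.5 ± 0.716 and 12.4 ± 3.42 CPM (edgeR adjusted p = 0.83).

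The list of synaptic basal lamina and scaffold genes had 16 of 23 tested genes negative, with a median of -0.18. Lamb2, for the laminin beta chain of the synaptic basal lamina, was 130, 112 and 103 CPM in control and 94.7, 87.9, 84.9 and 93.8 CPM in Sirt7 scKO (log2 fold change -0.35 with an SE of 0.093, edgeR adjusted p = 0.146). Its groups did not overlap. Colq, which anchors acetylcholinesterase in the cleft, was 5.73, 4.85 and 3.50 CPM in control and 2.96, 1.44, 1.95 and 2.84 CPM in Sirt7 scKO (log2 fold change -1.05 with an SE of 0.315, edgeR adjusted p = 0.193), and Plec, for the cytoskeletal linker plectin, was at -0.34 (edgeR adjusted p = 0.273). Singled out after their values were seen, the acetylcholinesterase gene Ache was 13.6, 16.4 and 9.29 CPM in control and 12.5, 1.83, 3.74 and 6.05 CPM in Sirt7 scKO. The muscle sodium channel gene Scn4a was 19.8, 19.4 and 12.96 CPM in control and 19.7, 3.53, 8.23 and 7.19 CPM in Sirt7 scKO. In both, Sirt7 scKO replicate 1 stood with control and above the other Sirt7 scKO libraries, as it did for Chrne and the mature fibre sum.

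Neuregulin receptors and Ets factors had 3 of 7 tested genes negative, with a median of 0.00. Erbb3, a neuregulin receptor gene that Schwann cells also express, was 20.9, 18.1 and 18.04 CPM in control and 10.4, 13.3, 10.3 and 13.6 CPM in Sirt7 scKO, with no overlap (log2 fold change -0.68 with an SE of 0.152, edgeR adjusted p = 0.106). Its ligand gene Nrg1 was at 0.64 (SE 0.39, edgeR adjusted p = 0.498), the N-box factor gene Gabpa at 0.15 and Etv4 at -0.24 (edgeR adjusted p = 0.508 and 0.646), and Erbb4 had 0 counts in all libraries. Downstream of MuSK, 7 of 17 genes of the agrin signalling list were negative, with a median of 0.01. The adaptor gene Dvl1 was at -0.28 (79.1 ± 6.52 and 65.3 ± 5.15 CPM, groups not overlapping, edgeR adjusted p = 0.250), and Crk, which binds DOK7, at 0.18 (edgeR adjusted p = 0.349). The kinase gene Yes1 and the GTPase gene Cdc42 were at 0.39 and 0.16 (edgeR adjusted p = 0.287 and 0.492). The 5 glycosylation genes that are mutated in human congenital myasthenia had positive fold changes with a median of 0.13, led by Gfpt1 (61.6 ± 4.79 and 71.0 ± 3.53 CPM, a log2 fold change of 0.21 with an edgeR adjusted p of 0.343). In that list Dpagt1 was at 0.13, Alg14 at 0.14 and Gmppb at 0.05 (edgeR adjusted p = 0.564, 0.662 and 0.894). The groups of Gfpt1, Dpagt1 and Alg14 did not overlap, with Sirt7 scKO higher. Of the exon bases of Gmppb, 33.6% are shared with Rnf123 on the other strand. Of the 11 other nicotinic receptor subunits, which neurons and some immune cells use, Chrnb2 alone had enough counts to be tested, at 41.8 ± 3.90 and 40.2 ± 1.99 CPM (log2 fold change -0.06, edgeR adjusted p = 0.848). Chrnb2 shares 16.3% of its exon bases with Adar on the other strand, and reads of such pairs cannot be told apart without strand. Chrna3, Chrna6 and Chrnb3 had 0 counts in all libraries.

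**Figure D5:**
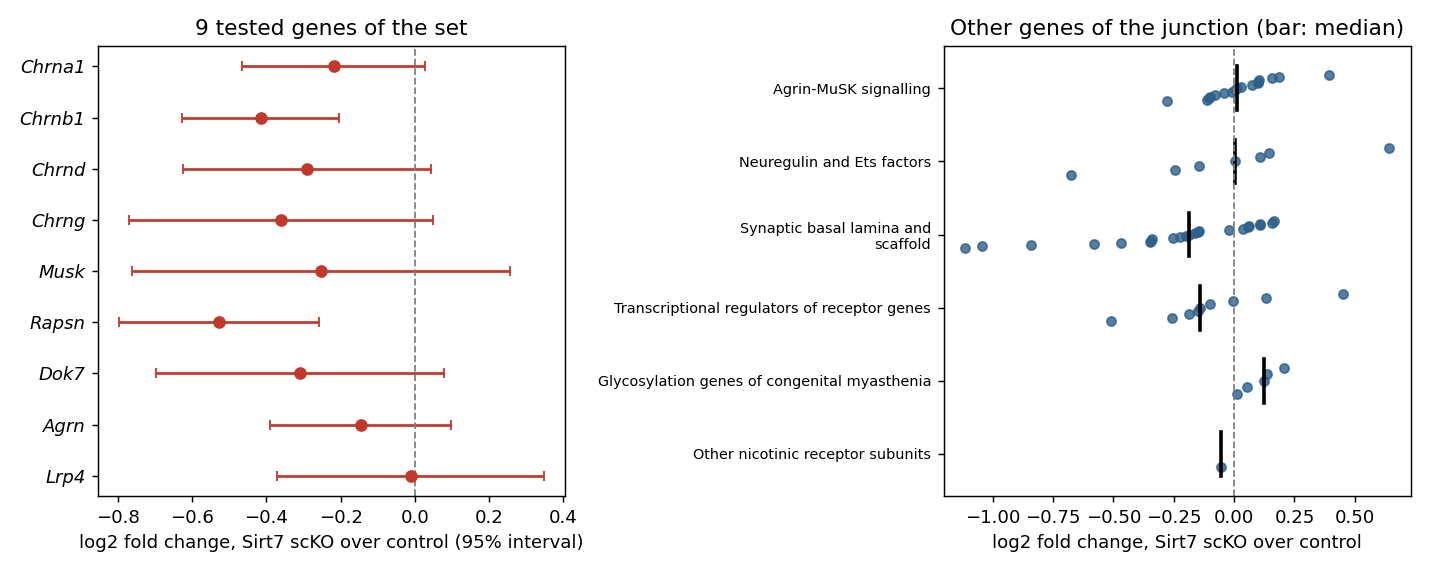
Left, log2 fold change of the 9 tested genes with 95% intervals, Sirt7 scKO over control. Right, the 62 tested genes of 6 other junction lists, 1 point per gene, with a bar at each median. The intervals of Rapsn (-0.80 to -0.26) and Chrnb1 (-0.63 to -0.20) alone lie wholly below 0 on the left, where each interval is for its gene alone.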

How the data were processed

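RNA of whole TA muscle was sequenced in 3 control and 4 Sirt7 scKO libraries, which the labels name as separate biological replicates, prepared with a kit that does not mark strand. The authors deposited raw counts per gene, and per the submitters' processing notes fastp, Bowtie2 and featureCounts were used and the build was GRCm38 (mm10). No versions, roles or order are named, and the sources used here do not give the annotation release, the strand setting or the rule for reads with several hits. Bowtie2 does not align across introns, so short exons may lose reads, which affects levels compared between genes.

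Identifiers were matched without version to GENCODE mouse release M21 (48144 of 48820, and all 10 genes with the same version). Lengths are the union of all exons. Genes were kept with filterByExpr (minimum count 10, minimum total 15) and tested in edgeR 4.0.16 (R 4.3.3) with TMM factors and a quasi-likelihood F test at a Benjamini-Hochberg adjusted p of 0.05 over 16764 genes. The SE is the fold change divided by the square root of F. The biological coefficient of variation was 11.9%. The fit was tested on simulated data. Alternatives used DESeq2 1.42.0, limma 3.58.1, other scalings, filters and designs, and left out each library. The ratio of Chrng to Chrne was tested by exact permutation. Figures used matplotlib 3.10.9.

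Named were the 10 genes, Sirt7, Pax7, Myod1 and Myog, up to 4 genes per junction list with the smallest p (1 of these is not reported here), and the 5 genes of nearest pattern by log2 CPM (prior count 2), without predicted models or symbols of pseudogenes. The 10 genes, the lists and the markers were chosen with earlier results of these data known.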

Additional observations from a re-analysis of the deposited data

Results flagged for a closer look

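Chrne in Sirt7 scKO stood apart in 1 library: replicate 1 had 8 counts (1.13 CPM) and replicates 2 to 4 had 2 counts each (0.262, 0.299 and 0.378 CPM), and the gap of replicate 1 to the next library was 0.865 of the whole range of the 4. For normally distributed values, chance alone gives such a gap in about 5% of groups, and 32 were looked at. Counts this low are not so distributed, so that share does not hold for Chrne. The 14 mature fibre markers summed to 4041 CPM in that library and to 681.5 to 1435 CPM in the other 3, and their part in the Chrne counts was not tested.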

How the results depend on the processing

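No member passed the threshold in the main test or in any alternative except the fit with no filter, where 1 did (Rapsn, log2 fold change -0.52, edgeR adjusted p = 0.016). Lrp4 turned positive with the replicate block (0.047) and without control replicate 1 (0.078) or Sirt7 scKO replicate 1 (0.044), 3 (0.019) or 4 (0.064), and ranged from -0.192 to 0.078 when each library was left out. Musk turned positive without control replicate 1 (0.033) and ranged from -0.393 to 0.033. The median of the 9 genes ran from -0.39 to -0.11 when each library was left out. The count of all genes past the threshold, 22, became 35 with total-count scaling, 585 with no filter, 154 with DESeq2, 5 with protein-coding genes alone (added after seeing the data) and 80 at an adjusted p of 0.1, and ran from 0 to 330 when each library was left out. The count of junction list genes, 0, became 7 with no filter and ran from 0 to 2 when each library was left out. No clear pairing by replicate number was seen, though so few libraries cannot exclude it. Deviations of same-numbered libraries correlated at 0.12, -0.07 and 0.10. Control replicate 1 correlated best with its own number, and control replicates 2 and 3 each with another number. With the replicate block, 537 genes, no member and 3 junction list genes, Erbb3 and Lamb2 among them, passed. The block moved Chrnd to -0.18 and Agrn to -0.07, the same rounded values as without Sirt7 scKO replicate 4. That library is the only one of its number, so with the block it adds nothing of its own to the fold change. The difference in the log2 ratio of Chrng to Chrne was positive in each alternative, from 0.43 to 1.27. Its p says nothing of stability where a library was left out or the block was used, since 0.0667, 0.1 and 0.25 are the smallest values possible without a control library, without a Sirt7 scKO library and with the block. The cause of the other changes was not tested. Depth limits Chrne (2 to 8 counts per library) most, and next Musk (41 to 75).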
